A study of Mus musculus with 12 samples.

Results

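The imprinted growth genes followed here were Peg10, Sgce, Peg3, Igf2, H19, Dlk1, Meg3, Mest, Plagl1 and Grb10. A probe set that named the gene and no other was taken for each, which gave 9 of the 10 named genes among the 19937 genes of the expression table, each with 1 probe set. H19 was not analysed here. The members were chosen from earlier results of the same arrays, in which Peg10 and Peg3 stood among the lowest genes of RelA/p65 deficient hosts under air. The differences of all members under air are therefore given as a description with no test. For Peg10 and Peg3 the same holds of every difference that uses the air arrays, smoke minus air included.

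The arrays measured RNA of Lewis lung carcinoma, a tumour line of C57BL/6 mice, cut out of the lungs of female C57BL/6 hosts. The 4 groups held 3 arrays each and came from RelA/p65 deficient hosts exposed to smoke, RelA/p65 deficient hosts exposed to air, wild type hosts exposed to smoke and wild type hosts exposed to air. RelA/p65 belongs to NF-kB, a family of transcription factors of inflammation, and the title of the series speaks of RelA/p65 in myeloid cells. All groups carried the same carcinoma line. The labels do not state the promoter or Cre line behind the deficiency, which part of the gene was lost, the age of the mice, the smoke dose, or whether the 3 arrays of a group stand for separate animals. The p-values below thus set a difference against the scatter of these arrays alone, and that scatter may be technical.

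Imprinted genes are transcribed mainly from the copy inherited from 1 parent, under the control of DNA methylation set in the germ line, and many of them act on fetal and placental growth. Peg10, Sgce, Peg3, Igf2, Dlk1, Mest and Plagl1 are transcribed mainly from the paternal copy, whereas H19, Meg3 and, in most tissues, Grb10 are transcribed from the maternal copy. Many are high in the embryo, fall in adult tissues and can be transcribed again in tumours.

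Promoter windows are shown for Peg3, Mest and Plagl1, members that lay over 1 log2 unit apart between genotypes under smoke. Windows of Peg10 and Sgce were not used here. Each window runs from 250 bases before to 50 bases after the gene start in RefSeq on GRCm38.p6. They lie at chr7:6730370-6730669 on the minus strand for Peg3, at chr6:30737800-30738099 on the plus strand for Mest, and at chr10:13090582-13090881 on the plus strand for Plagl1. The Mest window is the one richest in CpG of the 3 listed for that gene. Capitals mark motif matches on either strand.
Peg3: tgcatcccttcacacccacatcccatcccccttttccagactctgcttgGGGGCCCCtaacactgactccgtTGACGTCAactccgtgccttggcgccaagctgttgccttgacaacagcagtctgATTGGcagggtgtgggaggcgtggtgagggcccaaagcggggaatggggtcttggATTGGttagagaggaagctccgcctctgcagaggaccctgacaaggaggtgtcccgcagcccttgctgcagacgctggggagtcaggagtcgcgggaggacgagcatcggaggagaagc
Mest: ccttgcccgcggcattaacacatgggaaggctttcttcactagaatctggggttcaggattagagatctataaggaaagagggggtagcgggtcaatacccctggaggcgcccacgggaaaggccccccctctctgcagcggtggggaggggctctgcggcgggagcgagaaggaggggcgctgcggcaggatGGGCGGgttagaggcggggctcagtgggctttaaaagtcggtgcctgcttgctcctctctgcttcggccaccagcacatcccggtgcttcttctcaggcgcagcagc
Plagl1: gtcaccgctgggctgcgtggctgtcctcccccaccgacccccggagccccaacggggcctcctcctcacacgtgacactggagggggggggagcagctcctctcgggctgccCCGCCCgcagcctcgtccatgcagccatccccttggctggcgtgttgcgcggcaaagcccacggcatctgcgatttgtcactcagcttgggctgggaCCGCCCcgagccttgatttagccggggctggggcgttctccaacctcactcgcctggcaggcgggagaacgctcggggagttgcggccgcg

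The windows held 13 CpG in Peg3, 17 in Mest and 26 in Plagl1, against a median of 7 over the 32851 windows of the same length in the table. Fewer CpG were held by 62.1% of all windows than by that of Peg3, by 68.6% than by that of Mest and by 83.1% than by that of Plagl1. The Peg3 capitals mark a CRE (TGACGTCA, in 1.79% of all windows) 178 bases before the start, a CCAAT box (CCAAT, in 37.4%) at 124 and again at 69 bases before it, and the PLAGL1 core motif (GGGGCCCC, in 1.08%) at 201 bases. The Mest and Plagl1 capitals mark Sp1 motifs (GGGCGG, in 35.7%), at 57 bases before the start of Mest and at 138 and 41 bases before that of Plagl1. No match to the NF-kB consensus (8.46% of windows), to AP-1 (TGANTCA, 7.81%), to NRF1 (4.60%) or to YY1 (GCCATNTT, 6.05%) lay in these 3 windows, and no matches overlapped. These matches describe the letters of the windows and are not shown to be binding sites.

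Before the members were compared, Rela, which encodes RelA/p65, was read in every group. It was 9.31 ± 0.05 (SD, n = 3) in deficient smoke arrays and 9.42 ± 0.04 in deficient air arrays, against 9.08 ± 0.10 in wild type smoke arrays and 9.22 ± 0.06 in wild type air arrays. Rela was thus no lower in arrays that carry the RelA/p65 deficient label, named deficient arrays from here on. Rela was higher in deficient than in wild type arrays, by 0.23 ± 0.07 under smoke (limma adjusted p = 0.00873). The air difference was 0.20 ± 0.07 (limma adjusted p = 0.0285). The arrays read bulk tissue, so a loss limited to myeloid cells of the host would leave the Rela RNA of carcinoma and other cells. The deleted part is also not stated, and this probe set may lie outside it. For both reasons Rela does not check the labels. The deposited values are log2 expression, array medians lay between 6.78 and 6.88, and arrays of a group correlated with r of 0.990 to 0.998 across genes. As a guide to what is dim, 95% of 1027 olfactory receptor genes averaged below 6.03, with a median of 4.34. With 3 arrays a group, the precision of each mean is limited by their number.

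Peg10 was the member with the lowest values in deficient arrays relative to wild type. This gene derives from a retrotransposon, keeps gag and pol reading frames and is needed for the mouse placenta. Its log2 expression was 6.81, 6.65 and 6.81 in deficient smoke arrays and 6.77, 6.71 and 6.83 in deficient air arrays. It was 9.05, 8.99 and 8.88 in wild type smoke arrays and 8.90, 9.08 and 9.23 in wild type air arrays. All 6 deficient arrays lay more than 2 log2 units below the lowest wild type array, and neither genotype's smoke arrays separated from its air arrays. Under smoke the difference, deficient minus wild type, was -2.21 ± 0.09 (SE), a 4.64-fold lower level (limma adjusted p = 1.44e-10), and under air it was -2.30.

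Sgce, the gene next to Peg10 with 0 genes between them in the RefSeq order, moved the other way. It encodes epsilon-sarcoglycan, a membrane protein of the dystrophin-associated complexes. Its log2 expression was 10.06, 10.26 and 10.09 in deficient smoke arrays and 10.19, 10.34 and 10.33 in deficient air arrays. It was 9.58, 9.06 and 9.25 in wild type smoke arrays and 9.87, 9.91 and 9.95 in wild type air arrays. Wild type smoke arrays were the lowest and did not overlap any other group, with replicate 1 of that group above its other replicates. Under smoke Sgce was higher in deficient than in wild type arrays by 0.84 ± 0.11 (1.79-fold; limma adjusted p = 2.15e-05), and under air by 0.37.

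Peg3 encodes a zinc finger protein that, in the mouse, affects growth and maternal behaviour. Its log2 expression was 7.58, 7.42 and 7.26 in deficient smoke arrays and 7.52, 7.24 and 7.45 in deficient air arrays, groups that overlapped. It was 8.78, 8.69 and 8.60 in wild type smoke arrays and 9.51, 9.61 and 9.70 in wild type air arrays, groups that did not overlap each other or the deficient arrays. Under smoke Peg3 was lower in deficient than in wild type arrays by a log2 difference of -1.27 ± 0.10 (2.41-fold; limma adjusted p = 1.34e-07), and under air the difference was -2.20. Within wild type hosts the difference of smoke minus air was -0.92 ± 0.10 (1.89-fold), a description, because the wild type air arrays were among those by which Peg3 was noted.

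Mest, also called Peg1, encodes a membrane enzyme of the alpha/beta hydrolase fold that marks growing mesoderm in the mouse embryo. Mest had 8.08, 7.84 and 7.85 in deficient smoke arrays and 8.16, 8.18 and 8.20 in deficient air arrays. It was 9.30, 9.10 and 9.04 in wild type smoke arrays and 8.85, 8.89 and 8.98 in wild type air arrays. The 4 groups did not overlap, with wild type smoke arrays highest and deficient smoke arrays lowest. Under smoke the difference, deficient minus wild type, was -1.22 ± 0.08 (2.33-fold; limma adjusted p = 4.50e-08), and under air it was -0.72.

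Plagl1, a zinc finger transcription factor also known as Zac1, regulates a network of imprinted genes in the mouse and slows cell growth. Plagl1 had 7.89, 8.15 and 8.13 in deficient smoke arrays and 7.96, 7.98 and 7.98 in deficient air arrays. It was 6.12, 6.16 and 6.39 in wild type smoke arrays and 7.35, 7.42 and 7.62 in wild type air arrays. The 3 wild type smoke arrays stood near the level below which most olfactory receptor genes lie, and every other array lay above them. Under smoke Plagl1 was higher in deficient than in wild type arrays by 1.83 ± 0.10 (3.55-fold; limma adjusted p = 2.63e-09), and under air by 0.51. In wild type hosts it fell with smoke by 1.24 ± 0.10 on the log2 scale (2.36-fold; limma adjusted p = 4.23e-07).

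Dlk1, a membrane protein of the Notch ligand family that lacks the domain of the canonical ligands and holds back differentiation, varied most between arrays of a group. Its log2 expression was 7.41, 7.25 and 7.40 in deficient smoke arrays and 7.36, 7.25 and 7.27 in deficient air arrays. It was 7.44, 7.90 and 7.98 in wild type smoke arrays and 7.41, 7.55 and 6.93 in wild type air arrays. The SD was 0.09 and 0.06 in the deficient groups, against 0.29 and 0.33 in the wild type groups. Replicate 1 of wild type smoke lay just above the highest deficient smoke array. Under smoke Dlk1 was lower in deficient than in wild type arrays, at -0.42 ± 0.15 (limma adjusted p = 0.0328). Leaving out replicate 2 or 3 of wild type smoke ended that call, with adjusted p of 0.111 and 0.127, as did leaving out any of the 3 deficient smoke arrays.

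Grb10 encodes an adaptor that dampens signalling from the insulin and IGF receptors. Its log2 expression was 9.25, 9.22 and 9.20 in deficient smoke arrays, 9.27, 9.18 and 9.17 in deficient air arrays, 9.45, 9.34 and 9.43 in wild type smoke arrays and 9.40, 9.30 and 9.21 in wild type air arrays. The whole range over 12 arrays was 0.28. Under smoke the difference, deficient minus wild type, was -0.18 ± 0.07 (1.14-fold; limma adjusted p = 0.029), close to the -0.14 of the median gene. In 5 of 18 alternative settings the call ended, with adjusted p up to 0.0805.

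Igf2, the fetal growth factor that signals through the IGF1 receptor, ranged from 6.49 to 7.01 over all arrays. Its group means were 6.89 ± 0.10 and 6.81 ± 0.06 in deficient smoke and deficient air arrays, against 6.76 ± 0.26 and 6.73 ± 0.04 in wild type smoke and wild type air arrays (SD, n = 3 each). Meg3, a long non-coding RNA of the domain that holds Dlk1, ranged from 5.96 to 6.38, around the level that bounds most olfactory receptor genes. Under smoke neither passed the test between genotypes, with differences of 0.13 (95% interval -0.10 to 0.36; limma adjusted p = 0.296) for Igf2 and 0.11 (-0.11 to 0.33; limma adjusted p = 0.356) for Meg3.

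**Figure D1:**
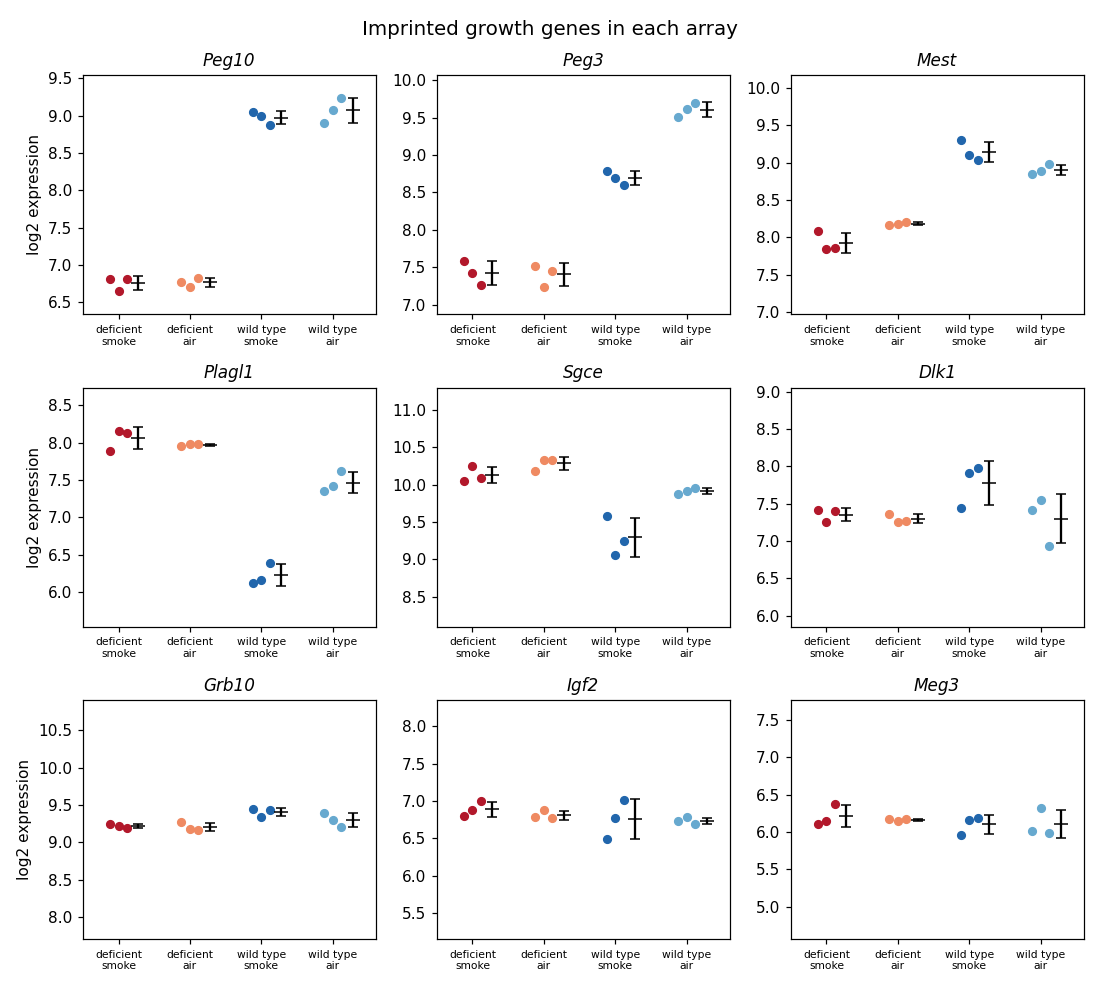
Log2 expression (y axes, each spanning the same number of log2 units) of the 9 measured imprinted growth genes in each array (points) of deficient smoke, deficient air, wild type smoke and wild type air hosts, with the group mean and SD (black). Peg10, Peg3 and Mest were lower in every deficient array than in any wild type array, Plagl1 and Sgce were lowest in wild type smoke arrays, and Igf2 and Meg3 stayed within a narrow range.

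Set against all genes, the genotype difference under smoke had 7 of 9 members past the test, 2 higher and 5 lower in deficient arrays. Of all 19937 genes 59.6% passed it, 22.7% higher and 37% lower, so that a call by itself was common. The genes that passed were higher in 38.0% of cases, and in 22.9% with each array centred on its median. The median difference over the members was -0.18, against -0.14 over all genes. These arrays are not those of the air comparison in which Peg10 and Peg3 were first noted, but a member list made with earlier results known gives no independent evidence for the list. The members that stand out by size were Peg10, Plagl1, Peg3 and Mest, each over 1 log2 unit apart. Under air, the comparison used to choose the members, 2 lay higher and 3 lower past the same limit, against 38.5% of all genes, 20.5% higher and 18% lower, and nothing is read from that count (53.2% of the passing genes were higher, and 39.6% after centring). Beside the values already given, the air differences were -0.10 for Grb10, 0.08 for Igf2, 0.06 for Meg3 and -0.00 for Dlk1.

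Smoke exposure within wild type hosts moved a part of the members. Smoke arrays were lower than air arrays for Plagl1, Peg3 and Sgce and higher for Dlk1 and Mest. With Peg3 counted, that made 5 of 9 members past the limit, 2 higher and 3 lower, against 29% of all genes, 15% higher and 14% lower, and the median over the members was -0.00, against 0.08 over all genes. Because Peg10 and Peg3 were picked with the air arrays, nothing is read from that count. Of the genes that passed 51.8% were higher, and 77.1% after centring. Sgce had a difference of -0.62 ± 0.11 (1.53-fold; limma adjusted p = 8.75e-04). The rises were smaller, 0.48 ± 0.15 for Dlk1 (limma adjusted p = 0.0358), whose smoke and air arrays overlapped, and 0.24 ± 0.08 for Mest (limma adjusted p = 0.0469), whose arrays did not. The Mest call held in 7 of 18 alternative settings, with adjusted p up to 0.129 in the others, and the Dlk1 call in 13 of 18. Without replicate 3 of wild type air, the lowest Dlk1 array of all, the difference of Dlk1 was 0.29, with an adjusted p of 0.161. Grb10, Igf2 and Meg3 did not pass, with 0.10 (95% interval -0.04 to 0.25), 0.02 (-0.21 to 0.26) and -0.00 (-0.22 to 0.22) in that order, and Peg10 had -0.10.

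In deficient hosts no member passed the test between smoke and air, 0 of 9, where 2.41% of all genes passed, 0.692% higher and 1.72% lower. Peg10 and Peg3 are in that count as a description only. By limma at an unadjusted p under 0.05, 1 member, Mest, and 2084 of all genes were past the limit there. The member farthest from 0 was Mest, at -0.26 ± 0.08 (limma adjusted p = 0.192), with all 3 smoke arrays below all 3 air arrays. Peg10 and Peg3 had -0.01 and 0.02. The 95% interval of Plagl1, -0.12 to 0.29, does not reach the size of its wild type difference.

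The difference between the smoke responses, deficient minus wild type, was tested in its own contrast, which contains the air difference known when the members were chosen. With Peg3 counted, 3 of 9 members were past the limit, 2 higher and 1 lower, against 14.6% of all genes, 8.89% higher and 5.7% lower (60.9% of the passing genes higher, and 41.4% after centring). Nothing is read from that count, because Peg3 was picked by the air difference within it. Plagl1 had 1.32 ± 0.14 (limma adjusted p = 1.23e-05), and Mest had -0.50 ± 0.12 (limma adjusted p = 0.0116). Peg3 had 0.93 ± 0.14, which is its smoke difference between genotypes minus the air difference by which it was picked, and is given without a test. For Plagl1 and Peg3 the smoke difference was close to 0 in deficient hosts and negative in wild type hosts. For Mest it was negative in deficient hosts and positive in wild type hosts. Sgce missed the test at 0.46 ± 0.15 (limma adjusted p = 0.0631), and passed at 0.61 without replicate 1 of wild type smoke (adjusted p = 0.00178).

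**Figure D2:**
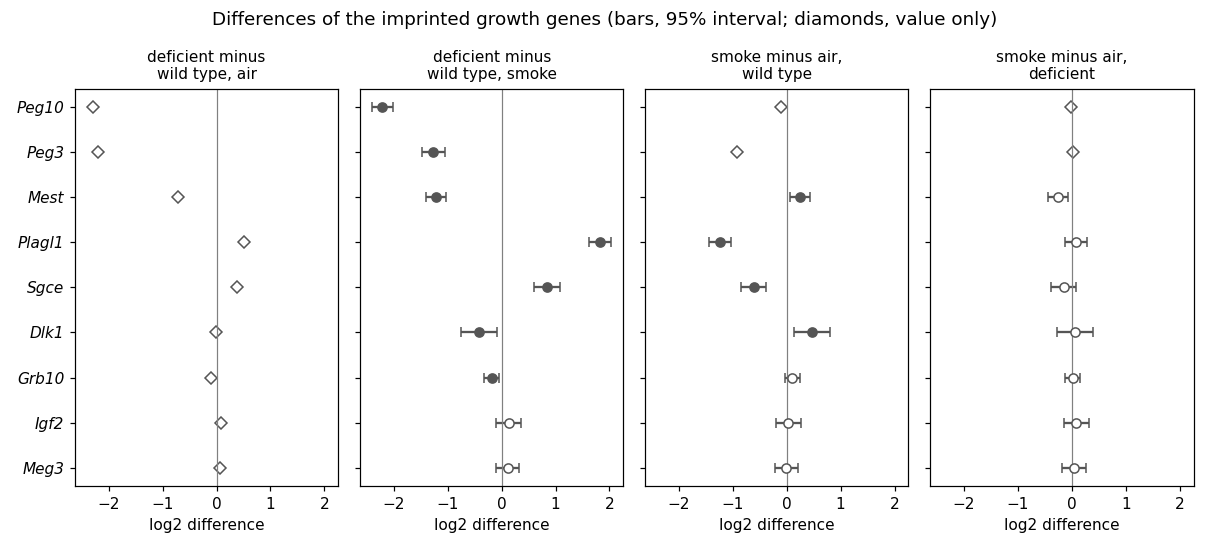
Log2 differences (x axes) of the 9 members between genotypes under air, between genotypes under smoke, and between smoke and air in wild type and in deficient hosts, with 95% intervals from limma and filled points past an adjusted p of 0.05. Diamonds are values with no interval or test, for all members under air and for Peg10 and Peg3 in both smoke panels. Peg10 lies at -2.30 and -2.21 in the genotype panels and near 0 in both smoke panels, while Plagl1 has a filled point below 0 with smoke in wild type hosts and an open point near 0 in deficient hosts.

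The order of the groups sorts the members into different shapes. Peg10 had wild type air and wild type smoke together at the top and both deficient groups together below. Peg3 had wild type air highest, wild type smoke next and both deficient groups together lowest. Plagl1 had both deficient groups highest and overlapping, then wild type air, then wild type smoke. Sgce had deficient air and deficient smoke highest and overlapping, then wild type air, then wild type smoke. Mest ran from wild type smoke through wild type air and deficient air to deficient smoke with no overlap between neighbours.

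Genes with the closest patterns over the 12 arrays were named for each member by Pearson's r, as a description that rests largely on the 4 group means. For Peg10 they were Islr (r = 0.998), Slc9a9 (0.993) and Prdx4 (0.992), and Islr averaged 8.54 and 8.63 in deficient smoke and air arrays, against 10.75 and 10.94 in wild type smoke and air arrays. For Peg3 they were Rev3l (0.995), Ttc3 (0.992) and Ccdc136 (0.989), and for Mest Cep170 (0.993), Pard3 (0.993) and Epb41l3 (0.990). For Plagl1 they were Gsn (0.998), Rasgef1a (0.997) and Dpep1 (0.997), and for Sgce C1galt1c1 (0.992), Tmem62 (0.990) and Tmem67 (0.988). The closest genes of the flatter members had lower values, Rasal1 for Dlk1 (0.971), Mir17hg for Grb10 (0.965), Rprm for Igf2 (0.939) and Klk13 for Meg3 (0.904).

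Imprinted genes lie in clusters, and the neighbours of the members were read next. On chromosome 6 the order was Calcr, Tfpi2, Casd1, Sgce, Peg10, Ppp1r9a, Pon1, Pon3, Pon2 and Asb4. Under smoke Pon1, a paraoxonase that hydrolyses lipid lactones and organophosphates, was at least 12.8-fold higher in deficient than in wild type arrays (limma adjusted p = 7.48e-12), with means of 9.71 in deficient and a dim 5.05 in wild type smoke arrays. The bound sets the dim arrays at 6.03, the level below which 95% of olfactory receptor genes lay. Ppp1r9a, the gene for the actin-binding protein neurabin, was higher by 1.86 ± 0.12, Pon3 by 1.56 ± 0.08 and Pon2 by 0.76 ± 0.07. The wild type smoke mean of Ppp1r9a was 6.05, next to that level, so the size of its differences is not exact. Peg10 thus lay at -2.21 between Sgce at 0.84 and Ppp1r9a at 1.86. With smoke in wild type hosts Pon1 was at least 5.63-fold lower, and Ppp1r9a had -1.19 ± 0.12, Pon3 -0.88 ± 0.08, Sgce -0.62 and Pon2 -0.41 ± 0.07, all past the test, against -0.10 for Peg10.

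Beside Plagl1 on chromosome 10, Phactr2, which encodes a phosphatase and actin regulator, differed in the same directions as Plagl1. It was higher in deficient than in wild type arrays under smoke by 2.51 ± 0.09 (limma adjusted p = 3.17e-11) and fell with smoke in wild type hosts by 1.69 ± 0.09 on the log2 scale. Ltv1, between them in the gene order, went the other way under smoke, at -0.64 ± 0.09 (limma adjusted p = 5.01e-05). Between genotypes under smoke, the measured neighbours of Peg3 and Mest named here had smaller differences than those members. Usp29 beside Peg3 had -0.31 ± 0.08 under smoke (limma adjusted p = 0.00684) and Zim1 had -0.17 (limma adjusted p = 0.128), both dim, with every group mean below 6.03. Copg2 beside Mest had 0.16 (limma adjusted p = 0.164) and Klf14 -0.38 ± 0.09 (limma adjusted p = 0.00364). Around Grb10, whose own difference was small, Fignl1 had -1.37 ± 0.18, Cobl 1.06 ± 0.12 and the lymphoid transcription factor Ikzf1 0.84 ± 0.08. Around Dlk1, at -0.42, Wdr25 had -0.49 ± 0.11, Begain -0.47 ± 0.14 and Rtl1 -0.31 ± 0.11 (limma adjusted p = 0.00289, 0.00989 and 0.0272). Rian and Dio3, both dim, did not pass. Of 30 measured neighbours in all, 10 were higher and 10 lower in deficient arrays under smoke, with a median of -0.11. Of all genes 22.7% were higher and 37% lower there. With smoke in wild type hosts 5 neighbours were higher and 7 lower, where 15% of all genes were higher and 14% lower. The genes Ltv1, Usp29, Zim1, Copg2, Klf14, Fignl1, Cobl, Ikzf1, Wdr25, Begain, Rtl1, Rian and Dio3 were picked out after their values were seen.

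**Figure D3:**
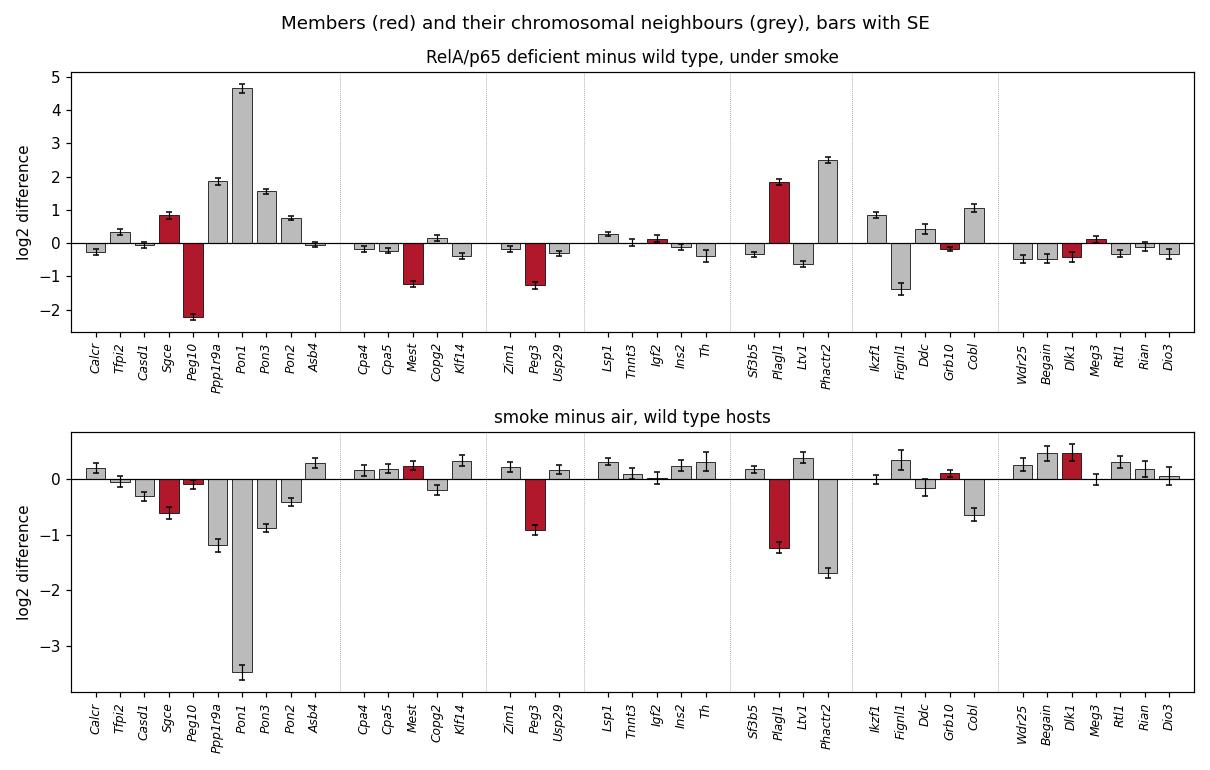
Log2 differences (y axes, bars with SE) of the members (red) and the genes listed around them (grey), in chromosomal order within each cluster, between genotypes under smoke (top) and between smoke and air in wild type hosts (bottom). Peg10 at -2.21 stands between positive bars of Sgce and Ppp1r9a in the top panel, and Plagl1 and Phactr2 share a direction in both panels.

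A wider list of imprinted genes outside the members had 52 of 64 genes measured. It shares many genes with the neighbours above, among them Pon1, Pon2, Pon3, Ppp1r9a and Phactr2, and Igf2r with the IGF list below. The counts of these lists are therefore not separate results. Under smoke 16 of the 52 genes were higher and 21 lower in deficient arrays, with a median of -0.15, where 22.7% of all genes were higher and 37% lower. With smoke in wild type hosts 9 were higher and 13 lower, with a median of 0.07, where 15% of all genes were higher and 14% lower. The same shares stand beside the counts of the lists that follow. In deficient hosts 0 of 52 passed limma's test with smoke, and 4 had an unadjusted p under 0.05. Of the genes with the smallest p under smoke, Cdkn1c, the imprinted cyclin-dependent kinase inhibitor p57, was higher in deficient arrays by 1.36 ± 0.08, and Pon1, Phactr2 and Pon3 are described above. With smoke in wild type hosts Ndn, the growth suppressor necdin, had -1.74 ± 0.14 and Cdkn1c -0.91 ± 0.08. The Ndn mean in wild type smoke arrays was 6.16, near the olfactory receptor level of 6.03. Under smoke Peg10 had the lowest difference of the 9 members and these 52 genes, and Igf2r, the maternally expressed receptor that clears IGF2, had -0.81 ± 0.07. Igf2r was named after its value was seen.

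**Figure D4:**
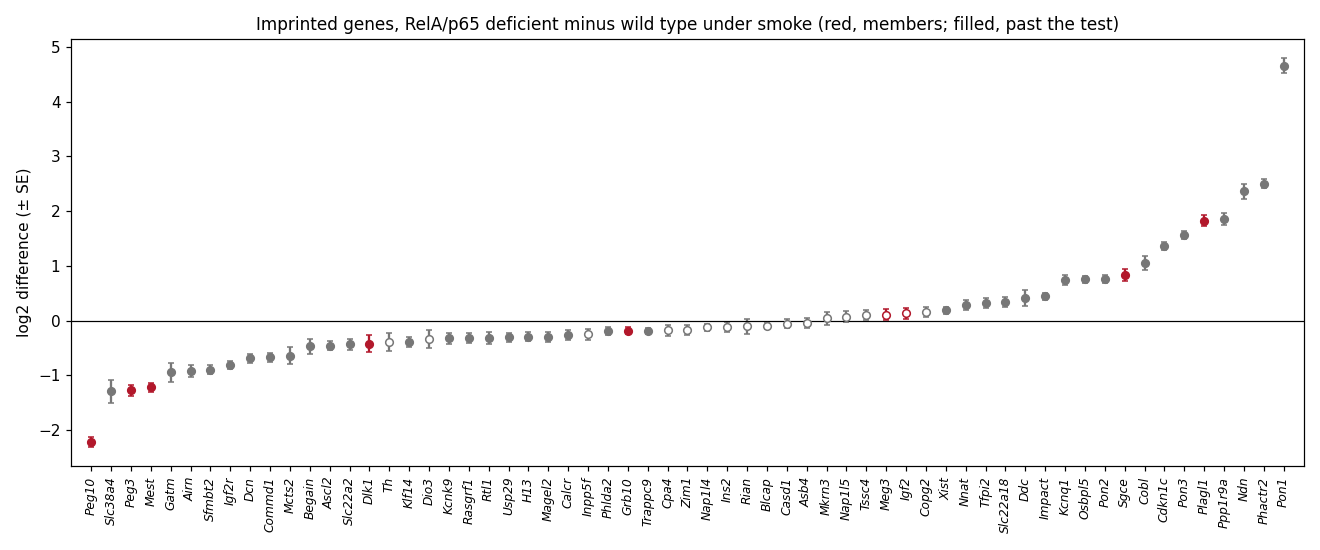
Log2 difference between deficient and wild type arrays under smoke (y axis, with SE) of the 9 members (red) and the 52 other imprinted genes (grey), sorted by value, with filled points past an adjusted p of 0.05. Peg10 is the lowest at -2.21, followed after Slc38a4 by Peg3 and Mest, and Plagl1 is the highest member at 1.83, below Ppp1r9a, Ndn, Phactr2 and Pon1.

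The listed genes of the IGF and insulin pathway, in which Igf2 and Grb10 act, were all measured, 28 of 28. They include ligand, receptor and binding protein genes, genes of signalling inside the cell and other pathway genes. Under smoke 10 were higher and 9 lower in deficient arrays, with a median of -0.03, against -0.14 over all genes. The binding protein genes Igfbp5 and Igfbp2 were higher by 2.83 ± 0.09 and 2.42 ± 0.11, Foxo1, the transcription factor held back by insulin signalling, by 1.67 ± 0.07, and Igfbp7 by 1.45 ± 0.08. With smoke in wild type hosts 3 rose and 14 fell. Igfbp5 had -2.25 ± 0.09, Igfbp2 -1.35 ± 0.11 and Igfbp7 -0.78 ± 0.08, while Igfbp3 rose by 0.73 ± 0.07, and Sh2b2 and Igfbp4 were the other rises, named after their values were seen. In deficient hosts Stc1 and Igf1r were higher and Igfbp5 lower with smoke, at 0.43 ± 0.09, 0.28 ± 0.07 and -0.57 ± 0.09.

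Oncofetal genes, among them the proteins that bind Igf2 and H19 RNA, had 11 of 13 measured. Under smoke 1 was higher, Gpc3, at 3.80 ± 0.09, and 7 were lower in deficient arrays, with a median of -0.48. Gpc3 encodes glypican 3, a proteoglycan that restrains growth. The IGF2 RNA-binding protein gene Igf2bp3 had -1.44 ± 0.10, the chromatin protein gene Hmga2 -1.35 ± 0.15 and the let-7 inhibitor gene Lin28b, dim with every group mean below 6.03, had -0.58 ± 0.07. With smoke in wild type hosts Gpc3 had -3.01 ± 0.09, and Hmga2, Dppa4, Lin28a and the dim Lin28b were higher by 0.34 to 0.74.

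Genes that keep or erase DNA methylation at imprints had 19 of 19 measured, with 3 higher and 10 lower in deficient arrays under smoke and a median of -0.21. Uhrf1, which brings the maintenance methyltransferase to replicated DNA, had -1.25 ± 0.14, that methyltransferase, Dnmt1, had -0.78 ± 0.09, and Uhrf2 and Trim28, the corepressor of imprint-binding zinc finger proteins, had -0.60 ± 0.07 and -0.60 ± 0.08. The higher genes were Kdm1b, Arid4a and Arid4b, named after their values were seen. Notch receptors, ligands and targets, the pathway of Dlk1, had 12 higher and 2 lower of 16, with a median of 0.76. The target gene Hey1 was higher by 2.24 ± 0.08, the receptor gene Notch3 by 1.51 ± 0.10, the ligand gene Dll4 by 0.98 ± 0.07 and Notch1 by 0.93 ± 0.07, whereas Dlk1 had -0.42. The lower genes were Hes5 and Dll3.

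Relatives of Peg10 and Sgce were read as well. Among 14 of 21 measured Sushi and PNMA genes, which also derive from retrotransposons, 3 were higher and 6 lower in deficient arrays under smoke, with Rtl8c at 1.44 ± 0.08 and the dim Pnma2, with means of 5.34 in deficient and 6.07 in wild type smoke arrays, at -0.73 ± 0.10. Among 4 of 5 measured sarcoglycans Sgcd had -0.84 ± 0.12, as large as the 0.84 of Sgce and opposite in sign, and the rest did not pass.

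MicroRNAs lie in the spans of Mest and Igf2, and another lies in the span of Rtl1, beside Dlk1 and Meg3. Spans were matched by position without regard to strand, so Rtl1 is not shown to be the host gene of miR-127. The mature forms are given from RefSeq on GRCm38.p6 with the seed (bases 2 to 8) in capitals. They lie at chr6:30741314-30741336 on the plus strand, chr7:142654932-142654952 on the minus strand and chr12:109592888-109592909 on the plus strand, and none shares its seed with the others.
mmu-miR-335-5p, in Mest: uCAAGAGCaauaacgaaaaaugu
mmu-miR-483-3p, in Igf2: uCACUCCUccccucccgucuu
mmu-miR-127-3p, in Rtl1: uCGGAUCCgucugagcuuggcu

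A gene array reads the precursor region and not the mature form. Mir335, within Mest, ranged from 5.24 to 5.34 in deficient smoke arrays, against 5.38 to 5.61 in wild type smoke arrays, a dim signal with a difference of -0.23 ± 0.08 (limma adjusted p = 0.022). The host gene Mest had -1.22 in the same contrast. Mir483 within Igf2 ranged from 7.82 to 7.98 in deficient smoke arrays, against 8.07 to 8.83 in wild type smoke arrays, with -0.61 ± 0.17 (limma adjusted p = 0.00893), while Igf2 itself had 0.13 and did not pass. Mir127 had -0.28 ± 0.13 (limma adjusted p = 0.0839). These precursors were picked out after their values were seen.

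Some lists of other measured genes differed between groups in the same direction as some of the members. In bulk tissue, fewer cells of a type and less RNA per cell cannot be told apart. Of 29 measured mitotic genes, 28 were lower and 1 higher (Pttg1) in deficient arrays under smoke, with a median of -1.46. Their mean log2 expression was 8.13 to 8.66 in deficient smoke arrays and 8.27 to 8.46 in deficient air arrays, against 9.68 to 9.85 in wild type smoke arrays and 9.34 to 9.52 in wild type air arrays. Peg10, Peg3 and Mest were low in the same 6 arrays. With smoke in wild type hosts 12 mitotic genes rose and 0 fell, while Mest had 0.24, Peg10 -0.10 and Peg3 -0.92. All 15 alveolar epithelial markers were higher in deficient arrays under smoke, with a median of 2.77, and all 15 fell with smoke in wild type hosts, with a median of -1.90. Their mean was 11.38 to 11.51 in deficient smoke arrays and 11.43 to 11.47 in deficient air arrays, against 8.52 to 8.66 in wild type smoke arrays and 10.49 to 10.69 in wild type air arrays, the group order of Plagl1 and Sgce.

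All 14 endothelial markers were higher in deficient arrays under smoke, with a median of 1.91, and 13 fell with smoke in wild type hosts. Their mean was 10.94 to 11.11 in deficient smoke arrays and 10.98 to 11.02 in deficient air arrays, against 8.63 to 8.74 in wild type smoke arrays and 9.93 to 10.12 in wild type air arrays. This is also the group order of Plagl1 and Sgce, and the means of the airway epithelial and Notch lists had it too. Of 12 macrophage and monocyte markers measured, 1 was higher and 7 lower in deficient arrays under smoke, and 10 rose with smoke in wild type hosts. Under air the direction was reversed, with 10 of the 12 higher and 0 lower in deficient arrays, where 20.5% of all genes were higher and 18% lower. In deficient arrays under smoke, 10 of 11 airway epithelial markers, 13 of 14 T and NK cell markers and 8 of 14 fibroblast and smooth muscle markers were higher, and 5 of the last were lower. No mitotic, alveolar or endothelial marker had a group mean below the level that bounds 95% of olfactory receptor genes, whereas 6 of 14 T and NK cell markers did in wild type smoke arrays and 4 in wild type air arrays. Scgb3a2 and Krt5 of the airway list and Ms4a7 of the macrophage list lay below it in 1 wild type group each, and all were named after their values were seen. The part of these lists in the differences of the members was not tested.

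**Figure D5:**
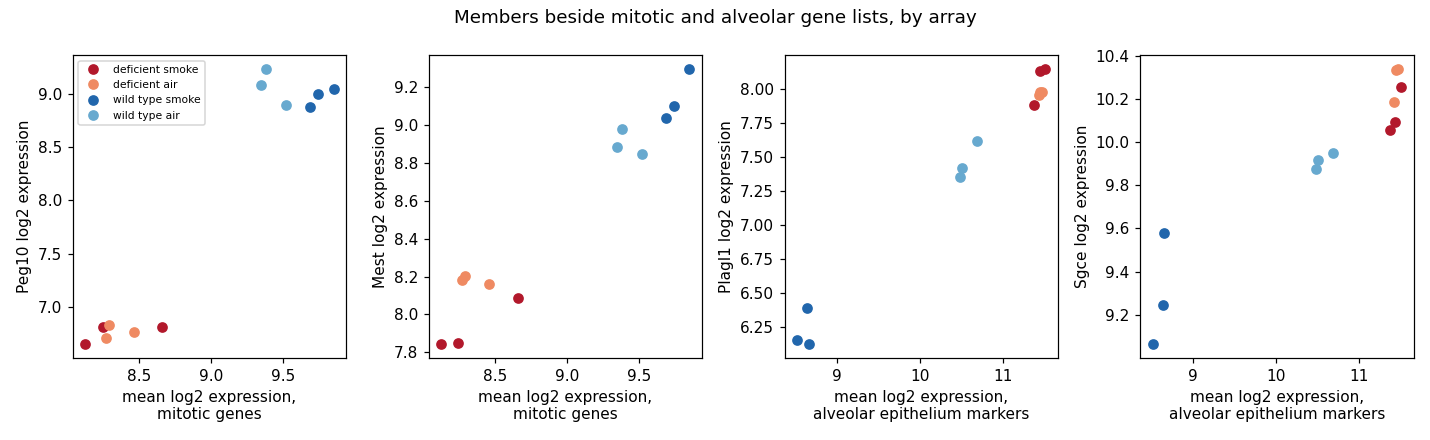
Log2 expression (y axes) of Peg10 and Mest against the mean log2 expression of 29 mitotic genes, and of Plagl1 and Sgce against that of 15 alveolar epithelial markers (x axes), with 1 point per array coloured by group. Deficient arrays lie low on both axes in the Peg10 and Mest panels, and wild type smoke arrays lie low on both axes in the Plagl1 and Sgce panels.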

How the data were processed

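Log2 expression was deposited by the authors for 12 Affymetrix mouse gene arrays, made, per the submitters' processing notes, with RMA in Affymetrix Expression Console (version not given in the sources used here). RMA gives every array the same distribution of probe signals before probes are summarized, so a difference is relative to the other genes of the array. Of 34760 probe sets, 21640 named 1 gene, 1321 named several and 11799 were not listed in the platform annotation. The brightest probe set by mean was kept per gene, which left 19937 genes.

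limma 3.58.1 in R 4.3.3 fitted 1 mean per group to all 12 arrays (8 residual and 4.83 prior degrees of freedom), and 5 contrasts were tested 2-sided. Benjamini-Hochberg adjusted p-values, taken over the whole gene table, passed below 0.05, and the method was tested on simulated data. The members and gene lists were chosen with earlier results of these data known. Named genes were every member, up to 4 genes per list with the smallest p among those past the test, up to 3 genes nearest each member in pattern, and Rela. Alternatives were a filter on dim genes (log2 of at least 6 in 3 arrays, 15007 genes, passed by all 9 measured members), the mean of probe sets, quantile normalization, median centring, a replicate block, fitting only 6 arrays and leaving out each array. Promoter and microRNA sequences came from RefSeq tables on GRCm38.p6. Figures used Python 3.11.15 and matplotlib 3.10.9.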

Additional observations from a re-analysis of the deposited data

Results flagged for a closer look

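The smoke response differed between deficient and wild type hosts, by limma's test of the difference itself, for Plagl1, Mest and the genes of the lists around them given here, and no explanation of these differences was tested. Among the members the difference, deficient minus wild type, was 1.32 for Plagl1 and -0.50 for Mest. Both values contain the air difference between genotypes, known when the members were chosen, and so give no independent evidence for the member list. For Peg3 the difference was 0.93, a value that contains the air difference by which Peg3 was picked and so counts as a description. Around Peg10 and Sgce it was 3.55 for Pon1, whose wild type smoke mean was dim so that the size is not exact, 1.35 for Ppp1r9a, 0.99 for Pon3 and 0.43 for Pon2. Around the other members it was 1.49 for Phactr2, -0.44 for Ltv1, -0.63 for Lsp1 and -0.39 for Ikzf1. Of all genes 8.89% were higher and 5.7% lower by this test, shares that stand beside the list counts given next. Of the 52 other imprinted genes 8 were higher and 2 lower, a count that includes neighbours just named. The difference was 1.58 for Ndn, 0.75 for Cdkn1c, 0.41 for Igf2r, -0.76 for Sfmbt2 and -0.44 for Dcn beside those already given. Sfmbt2 and Dcn were named after their values were seen. In the IGF pathway, where 12 genes were higher and 2 lower, it was 1.68 for Igfbp5, 1.29 for Stc1, 1.23 for Igfbp2, 0.82 for Foxo1, 0.74 for Igfbp7, 0.38 for Igf1r, -0.36 for Sh2b2 and -0.61 for Igfbp3. Among Notch genes, 4 higher and 0 lower, it was 1.24 for Hey1, 0.91 for Notch3 and 0.63 for Notch1. Among relatives of Peg10 and Sgce it was 0.48 for Rtl8c and -0.78 for Sgcd. Among oncofetal genes it was 2.80 for Gpc3, -0.39 for Dppa4 and -0.38 for Lin28b, which was dim in all groups. By the same test 15 of 15 alveolar, 13 of 14 endothelial and 8 of 11 airway epithelial markers were higher and 0 lower. Fibroblast and smooth muscle markers had 9 of 14 higher and 2 lower. Of 12 macrophage and monocyte markers 9 were lower and 0 higher, and of 29 mitotic genes 3 were lower and 0 higher.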

How the results depend on the processing

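Peg10, Peg3, Mest, Plagl1 and Sgce passed the genotype test under smoke in all 18 alternatives, Plagl1 and Sgce the smoke test in wild type hosts in all 18, and Mest and Plagl1 the test between smoke responses in all 17. Of the members' values outside the air comparison under the alternatives, 607 stayed on the same side of the limit, 26 lost the call and 6 gained it. Those counts hold Peg10 and Peg3, whose values that use the air arrays are a description only. Among the gains were Igf2 between genotypes under smoke without wild type smoke replicate 3 (0.26, limma adjusted p = 0.0305) and Meg3 there with quantile normalization (0.17, limma adjusted p = 0.0481). With wild type smoke minus wild type air, 5778 genes passed, against 9852 with median centring (77.1% higher, against 51.8%) and 3454 with only the 6 arrays compared, where 3 members passed in place of 5. Median centring moved the median of all genes to -0.28, against -0.14, under smoke between genotypes and to 0.17, against 0.08, with smoke in wild type hosts. With smoke in deficient hosts 481 genes passed, against 1018 with only the 6 arrays compared.

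Leaving out 1 array gave 9853 to 13472 genes between genotypes under smoke, 6451 to 8579 under air, 261 to 717 with smoke in deficient hosts, 3695 (without wild type air replicate 3) to 8824 (without wild type smoke replicate 1) with smoke in wild type hosts, and 2239 to 4969 (without wild type smoke replicate 1) between the smoke responses, against 2909 with all arrays. Members passing, with Peg3 counted, were 5 to 7 between genotypes under smoke, 3 to 5 with smoke in wild type hosts, 0 in deficient hosts and 3 to 5 between the smoke responses, with 5 without wild type smoke replicate 1, where Sgce and Dlk1 joined. The cause was not tested. With the replicate block, Dlk1 with smoke in wild type hosts had an adjusted p of 0.0528. Deviations of same-numbered arrays correlated between -0.36 and 0.37. The labels do not say what the number stands for, and whether same-numbered arrays share a batch was not tested. Dim signal limits Meg3, Mir335, Lin28b and Pon1, and wild type smoke values near the same level limit Ppp1r9a, Ndn and Plagl1.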
